A study of Mus musculus with 6 samples.

Results

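Ribosome biogenesis factors are the nucleolar proteins that cut, modify and fold ribosomal RNA and assemble it with ribosomal proteins. A list of 59 of them was read from the gene count table of sorted mouse haematopoietic stem cells. The list holds the proteins of small nucleolar ribonucleoproteins (snoRNPs) and the processing factors of the small and the large ribosomal subunit, and all 59 symbols were found among the 49997 genes counted. Long-term haematopoietic stem cells were sorted from the bone marrow of 4-month-old C57BL/6J mice by their level of Asrij, the endosomal and mitochondrial protein encoded by Ociad1. The low and the high population were each profiled by bulk RNA-seq in 3 libraries (Asrij low and Asrij high, replicates 1 to 3), and both carry the same strain under genotype. The counts bear the name ArjKI_LTHSC, which may stand for an Asrij knock-in, so the mice may not be wild type. The labels do not state whether the sort read a reporter or an antibody, how pure the gates were, or whether separate mice gave the 3 libraries of a group. The p-values therefore measure only how these samples vary, and that variation may be technical.

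Ribosome production starts with transcription of the ribosomal RNA precursor by RNA polymerase I in the nucleolus. Box C/D snoRNPs guide methylation and box H/ACA snoRNPs guide pseudouridylation of that precursor, the small subunit processome folds and cleaves its first part, and a separate set of factors builds the large subunit. Blood stem cells are known for a low rate of protein synthesis compared with the progenitors that arise from them, and the pathway is a known target of the transcription factor Myc.

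Library totals ran from 24707012 to 46240743 counts in Asrij low and from 62732782 to 72855125 in Asrij high. Levels are given as CPM, counts relative to the library total after TMM scaling, and fold changes are Asrij high over Asrij low from edgeR's quasi-likelihood test, adjusted over the 21445 genes that passed a filter on low counts. The sorted gene itself, Ociad1, had 57.9, 50.3 and 46.7 CPM in Asrij low and 86.9, 77.6 and 76.3 CPM in Asrij high (log2 fold change 0.64 ± 0.16 (SE), edgeR adjusted p = 0.0115). Its call was lost when counts were scaled by totals alone (adjusted p = 0.133, log2 0.36), under upper quartile scaling (adjusted p = 0.0834, log2 0.36) and without Asrij high replicate 1 (log2 0.53, adjusted p = 0.0831). The populations differed broadly, with 4655 genes higher and 3797 lower in Asrij high. With library totals only, the split was 3270 higher and 4856 lower, and with upper quartile factors it was 3447 higher and 5192 lower. Over all genes, the median log2 change went from -0.02 to -0.29 and -0.295 under these scalings, so fold changes are relative to TMM scaling. On the first principal component, with 57.7% of the variance, Asrij high replicate 2 lay closest to Asrij low.

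All 59 ribosome biogenesis factors were higher in Asrij high. Each of the 59 passed the edgeR test, where 21.7% of all genes tested were called higher, and none was lower, where 17.7% of all genes were. For each of the 59, the lowest Asrij high library exceeded the highest Asrij low library, which held for 30.2% of all genes tested. The log2 fold changes ran from 0.72 (Ddx56) to 2.31 (Nhp2), with a median of 1.35 against -0.02 for all genes tested, and 44 of the 59 rose at least 2-fold, where 13.9% of all genes did. In bulk RNA, fewer cells of a type and less RNA per cell cannot be told apart. All 59 had at least 263 counts in every library, so none passed the low-count filter through the Asrij high libraries alone.

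Summed over the 59 genes, the level was 4332, 5709 and 4005 CPM in Asrij low replicates 1 to 3 and 14853, 10420 and 14179 CPM in Asrij high replicates 1 to 3. The groups did not overlap, and the lowest Asrij high library lay well above the highest Asrij low library. As a share of all counts, which uses no scaling factor, the 59 genes took 0.506%, 0.613% and 0.42% in Asrij low and 1.29%, 1.0% and 1.28% in Asrij high. Ranked within each library among all genes tested, the median factor stood at percentile 81.0, 81.3 and 78.6 in Asrij low and at 89.6, 87.9 and 89.7 in Asrij high. Libraries of a group also differed from each other. Within Asrij low, replicate 2 was the highest library for 51 of the 59 genes and replicate 3 the lowest for 37. Within Asrij high, replicate 2 was the lowest for 54 of the 59.

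**Figure D1:**
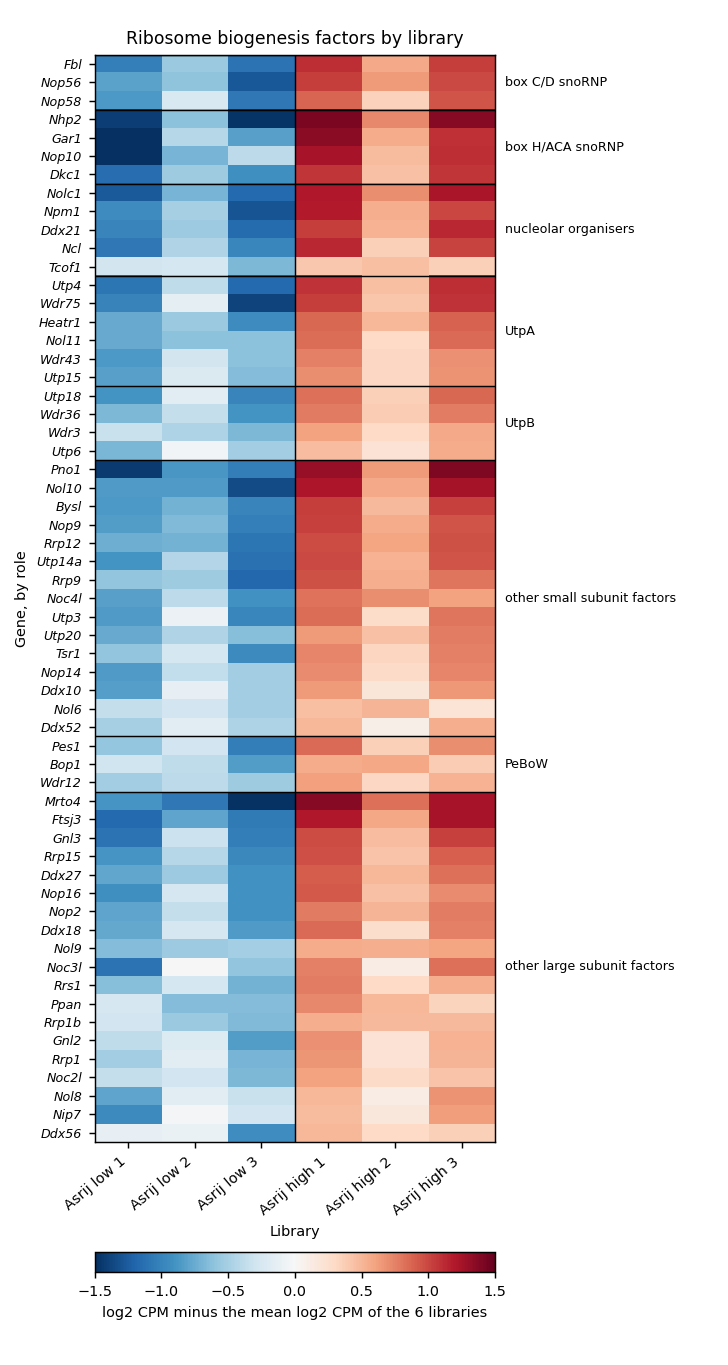
Log2 CPM of each of the 59 genes (rows, grouped by role and sorted by fold change) in each of the 6 libraries (columns), as the difference from the gene's mean over the 6 libraries, from blue (lower) to red (higher), with colours saturated at the ends of the scale. Every gene is higher in all 3 Asrij high libraries than in any Asrij low library, and Asrij high replicate 2 is paler than replicates 1 and 3 in 54 of 59 rows.

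The 3 core proteins of box C/D snoRNPs in the list rose together, with log2 fold changes from 1.42 to 1.80. Snu13, a further core protein that is outside the list, was higher too (log2 1.62 ± 0.17, edgeR adjusted p = 0.000305). Fbl, fibrillarin, the methyltransferase of the particle, had 139.8, 193.0 and 131.8 CPM in Asrij low and 613, 421 and 582 CPM in Asrij high, a log2 fold change of 1.80 ± 0.22 (SE, edgeR adjusted p = 0.000521). Its lowest Asrij high library, replicate 2, was above the highest Asrij low library, also replicate 2. The paralogous scaffold proteins Nop56 and Nop58 sit on the guide RNA side by side. Nop56 had 102.3, 117.2 and 74.1 CPM in Asrij low and 364, 278 and 355 CPM in Asrij high (log2 1.76 ± 0.21, edgeR adjusted p = 0.000481). Nop58 had 92.9, 144 and 80.6 CPM in Asrij low and 310.3, 215 and 325 CPM in Asrij high (log2 1.42 ± 0.25, edgeR adjusted p = 0.00257). The ratio of Nop56 to Nop58 was 1.10, 0.812 and 0.919 in Asrij low and 1.17, 1.29 and 1.09 in Asrij high, so that the ratios of the groups overlapped.

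The 4 proteins of box H/ACA snoRNPs had the highest median of the roles, a log2 fold change of 1.88 (range 1.73 to 2.31). Nhp2, an RNA-binding core protein, had 60.5, 104.9 and 58.3 CPM in Asrij low and 430, 265 and 414 CPM in Asrij high. This rise of 4.96-fold (log2 2.31 ± 0.28, edgeR adjusted p = 0.000547) was the largest among the 59. Dkc1, dyskerin, the pseudouridine synthase of the particle and also a telomerase component, had 67.0, 102.8 and 78.5 CPM in Asrij low and 312, 202 and 313 CPM in Asrij high (log2 1.73 ± 0.23, edgeR adjusted p = 0.000763). Gar1 (log2 1.94 ± 0.35) and the small protein Nop10 (1.81 ± 0.34) rose with them. These had the widest standard errors of the 59, and in both Asrij low replicate 1 was the lowest library. Per kb of exon, mean levels in Asrij high ran from 30.8 CPM for Gar1 and 66.8 CPM for Dkc1 to 89.1 CPM for Nop10 and 322 CPM for Nhp2, although the 4 proteins belong to 1 particle.

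Of the 5 proteins grouped as nucleolar organisers, 4 rose about as much as the snoRNP proteins and Tcof1 rose less. Nolc1, a nucleolar protein that binds snoRNPs, had 67.6, 99.7 and 72.1 CPM in Asrij low and 373, 263 and 379.7 CPM in Asrij high (log2 2.08 ± 0.22, edgeR adjusted p = 0.000313). Npm1, nucleophosmin, had 424, 576 and 332 CPM in Asrij low and 1852, 1183 and 1628 CPM in Asrij high (log2 1.81 ± 0.26, edgeR adjusted p = 0.001). The multifunctional RNA-binding protein Ncl, nucleolin, had 516, 795 and 548 CPM in Asrij low and 2372, 1386 and 2189 CPM in Asrij high (log2 1.68 ± 0.26, edgeR adjusted p = 0.00149). Npm1 and Ncl were the most counted of the 59 and together made up 21.7% to 24.01% of the counts of all 59 in Asrij low and 24.7% to 28.4% in Asrij high. Per kb of exon, Npm1 had the highest level of the 59 in both groups, with means of 167 and 583 CPM. The treatment of multiply mapped reads is not given, and the value of Npm1, which has processed pseudogenes, is therefore uncertain as that of 1 gene. Ddx21, a helicase that acts on nascent ribosomal RNA, rose by a log2 of 1.80 ± 0.23. Tcof1, treacle, a cofactor of RNA polymerase I, had 117.4, 118.3 and 89.3 CPM in Asrij low and 188, 195 and 182 CPM in Asrij high (log2 0.80 ± 0.16, edgeR adjusted p = 0.00487). Unlike for most of the 59, Asrij high replicate 2 was its highest library.

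The small subunit factors rose in all 25 cases, with a median log2 fold change of 1.34. UtpA, the subcomplex that binds the precursor first, had a median of 1.42 over its 6 proteins. Utp4 had the largest rise there, from 33.1, 54.0 and 31.3 CPM in Asrij low to 149, 96.2 and 151 CPM in Asrij high (log2 1.74 ± 0.26, edgeR adjusted p = 0.00126). Utp15 had the smallest, from 32.6, 49.2 and 36.3 CPM to 92.8, 71.0 and 90.9 CPM (log2 1.11 ± 0.20, edgeR adjusted p = 0.00294). The other UtpA proteins were Wdr75 (1.63), Nol11 (1.35), Wdr43 (1.16) and Heatr1, which lay between Wdr75 and Nol11. UtpB, a second subcomplex of the processome, had a median of 1.13 over 4 proteins. In it Utp18 (1.34 ± 0.25) and Wdr36 (1.28 ± 0.20) rose more than 2-fold, and Wdr3 (0.98 ± 0.17) and Utp6 (0.81 ± 0.20) less. Utp18 had 29.2, 48.1 and 27.4 CPM in Asrij low and 96.6, 69.5 and 98.8 CPM in Asrij high. Utp6 had 61.4, 96.5 and 69.1 CPM in Asrij low and 137, 115 and 146 CPM in Asrij high, and its Asrij low replicate 2 lay nearest to the Asrij high libraries.

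Among the 15 remaining small subunit factors the log2 fold changes spread from 0.76 to 2.25. Pno1, a protein of the late precursor of the small subunit, had 7.68, 11.4 and 10.2 CPM in Asrij low and 51.8, 32.4 and 55.2 CPM in Asrij high, a rise of 4.77-fold (log2 2.25 ± 0.27, edgeR adjusted p = 0.000489). The groups were separated by a wide gap in this gene, since its lowest Asrij high library was more than 2-fold above its highest Asrij low library. Nol10 (2.04), Bysl, which joins the precursor near Pno1 (1.72), Nop9 (1.70), Rrp12, an export factor (1.69), Utp14a (1.63) and Rrp9, which binds a guide snoRNA (1.52), followed. Noc4l (1.40), Utp3 (1.24), the large scaffold protein Utp20 (1.23), Tsr1 (1.19) and Nop14, a partner of Noc4l (1.15), were in the middle of the range. Smaller rises were those of the helicase Ddx10 (0.96), Nol6 (0.78) and the helicase Ddx52. Ddx52 had 22.5, 28.4 and 22.9 CPM in Asrij low and 44.8, 33.6 and 46.2 CPM in Asrij high (log2 0.76 ± 0.21, edgeR adjusted p = 0.0171), and Asrij high replicate 2 came close to the highest Asrij low library.

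The 22 large subunit factors all rose as well, with a median log2 fold change of 1.08. The PeBoW complex, in which Pes1, Bop1 and Wdr12 act together, had values of 1.25 ± 0.22, 0.99 ± 0.18 and 0.97 ± 0.16. Pes1 had 123, 151 and 89.7 CPM in Asrij low and 331, 236 and 298 CPM in Asrij high (edgeR adjusted p = 0.00251). Wdr12 had 50.1, 54.8 and 49.7 CPM in Asrij low and 109.98, 89.1 and 103.5 CPM in Asrij high (edgeR adjusted p = 0.00162). Relative to Pes1, Bop1 stood at 0.395, 0.306 and 0.375 in Asrij low and 0.266, 0.381 and 0.261 in Asrij high, which overlapped.

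Of the 19 other large subunit factors, Mrto4 and Ftsj3 rose about as much as the snoRNP proteins. Mrto4, a relative of the stalk protein of the ribosome that holds its place on the precursor, had 25.2, 22.1 and 16.6 CPM in Asrij low and 119.7, 82.4 and 109.5 CPM in Asrij high. This rise of 4.87-fold had the smallest adjusted p of the 59 (log2 2.28 ± 0.22, edgeR adjusted p = 0.000239). Ftsj3, a ribosomal RNA methyltransferase, rose by 2.03 ± 0.22. Gnl3 (1.62), Rrp15 (1.52), the helicase Ddx27 (1.49), Nop16 (1.36), the methyltransferase Nop2 (1.36), the helicase Ddx18 (1.24), the RNA kinase Nol9 (1.14), Noc3l (1.10), Rrs1 (1.07) and Ppan (1.03) also rose at least 2-fold. The rises of Rrp1b (0.99), Gnl2 (0.93), Rrp1 (0.92), Noc2l (0.88), Nol8 (0.86), Nip7 (0.81) and the helicase Ddx56 (0.72) were smaller.

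The paralogue pairs among the large subunit factors differed in how evenly they moved. Rrp1 had 189.8, 243 and 168 CPM in Asrij low and 432, 318 and 389.8 CPM in Asrij high. Rrp1b had 46.1, 38.1 and 35.5 CPM in Asrij low and 81.7, 78.3 and 78.3 CPM in Asrij high. They rose by similar amounts, and the ratio of Rrp1 to Rrp1b was 4.11, 6.38 and 4.72 in Asrij low and 5.29, 4.06 and 4.98 in Asrij high, which overlapped. Gnl3, nucleostemin, a nucleolar GTPase known from stem and tumour cells, had 51.9, 89.7 and 54.5 CPM in Asrij low and 221, 154 and 229 CPM in Asrij high (log2 1.62 ± 0.25, edgeR adjusted p = 0.00142). Its relative Gnl2 had 49.0, 55.1 and 35.7 CPM in Asrij low and 101.8, 73.7 and 91.2 CPM in Asrij high (log2 0.93 ± 0.21, edgeR adjusted p = 0.00672). The ratio of Gnl3 to Gnl2 was 1.06, 1.63 and 1.53 in Asrij low and 2.17, 2.09 and 2.51 in Asrij high, without overlap. These ratios were described and not tested.

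**Figure D2:**
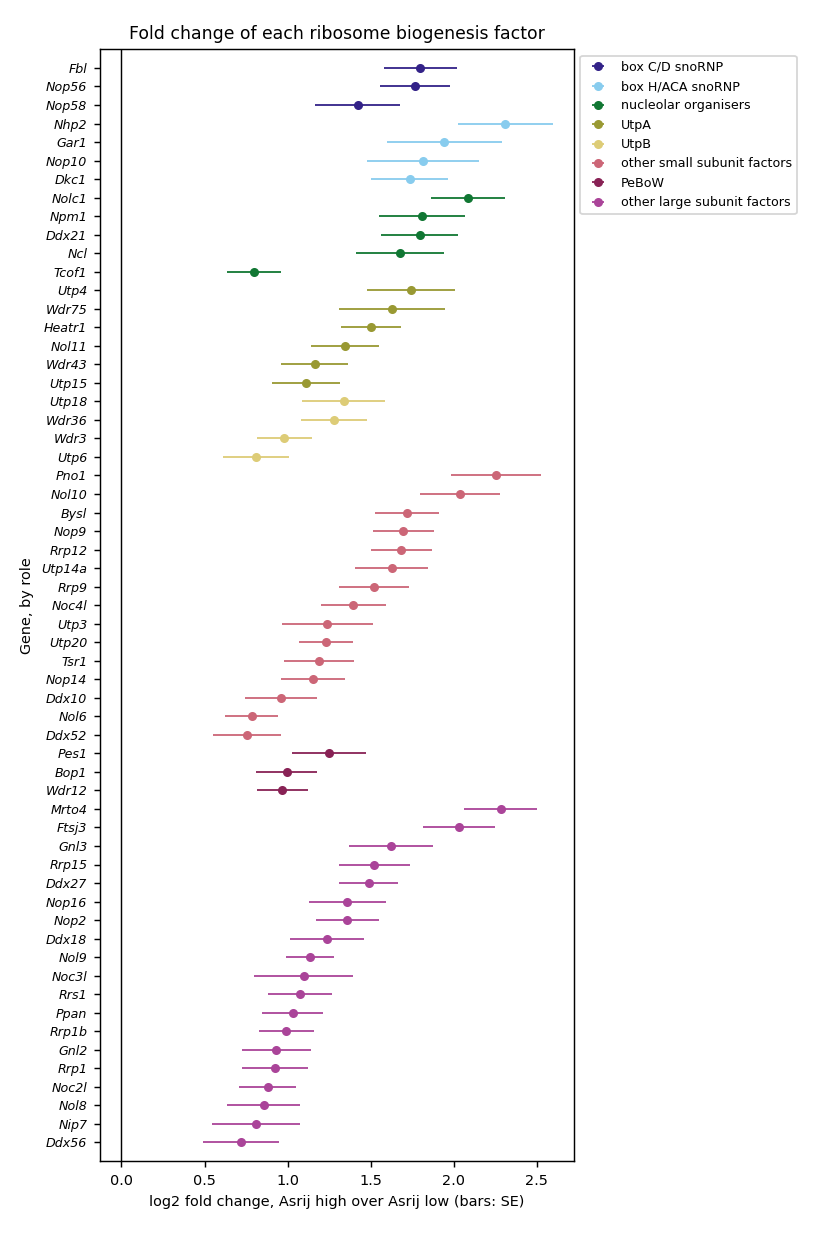
Log2 fold change, Asrij high over Asrij low, of each of the 59 genes (points, with bars for the standard error), coloured by role. Values run from 0.72 (Ddx56) to 2.31 (Nhp2), and the snoRNP proteins lie between 1.42 and 2.31.

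The calls of 5 of the 59 depended on a library or on the scaling. Nip7, which helps to assemble the large subunit, had 13.8, 26.2 and 21.9 CPM in Asrij low and 37.0, 30.0 and 41.3 CPM in Asrij high. Asrij high replicate 2 was near Asrij low replicate 2, and the edgeR adjusted p of 0.0362 was the highest of the 59. Nip7 was not past the threshold when Asrij low replicate 1 (adjusted p = 0.0831) or 3 (0.0624) was left out, nor when Asrij high replicate 1 (0.104) or 3 (0.14) was, with a range over alternatives of 0.00508 to 0.14. Ddx56 had 50.3, 50.9 and 28.8 CPM in Asrij low and 77.2, 67.2 and 70.1 CPM in Asrij high (edgeR adjusted p = 0.032). It lost its call when Asrij low replicate 3 (0.0564), Asrij high replicate 1 (0.108) or Asrij high replicate 3 (0.0749) was left out, with a range of 0.00357 to 0.184. Ddx52 lost it on omission of Asrij low replicate 1 (0.0538), Asrij high replicate 1 (0.0843) or the third Asrij high library (0.0908), Nol8 without Asrij high replicate 1 (0.0509) or 3 (0.0657), and Noc3l without any 1 of the replicates 1 and 3 of Asrij low (0.0508 and 0.0534) and of Asrij high (0.0531 and 0.0541). Scaling had a like effect, since upper quartile factors ended the calls of Nip7 (0.119), Ddx56 (0.12), Ddx52 (0.0718) and Nol8 (0.0504), and library totals those of Nip7 (0.11), Ddx56 (0.184) and Ddx52 (0.0864). Nip7 was also not called with a filter of at least 1 CPM in 3 libraries (0.057). In the 15 alternatives the log2 fold changes of these 5 genes were above 0, with a lowest value of 0.44 (Ddx56, library totals). The other 54 genes were called higher in each of the 15 alternatives.

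Within a library, the balance between roles also differed between the populations, and such ratios do not depend on the scaling. The summed level of the 7 snoRNP proteins relative to that of the 22 large subunit factors was 0.336, 0.406 and 0.371 in Asrij low and 0.563, 0.503 and 0.58 in Asrij high. The groups did not overlap, with means of 0.371 ± 0.0349 and 0.549 ± 0.0402 (SD, n = 3 each). Relative to the 25 small subunit factors, the snoRNP proteins stood at 0.445, 0.511 and 0.461 in Asrij low and at 0.702, 0.619 and 0.693 in Asrij high, again without overlap. The ratio of small to large subunit factors was 0.755, 0.793 and 0.804 in Asrij low and 0.801, 0.813 and 0.837 in Asrij high, and there the groups overlapped. Box H/ACA relative to box C/D proteins gave 0.448, 0.567 and 0.662 in Asrij low and 0.719, 0.628 and 0.705 in Asrij high, which overlapped too. The roles were compared by these values only, with no test between gene groups.

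**Figure D3:**
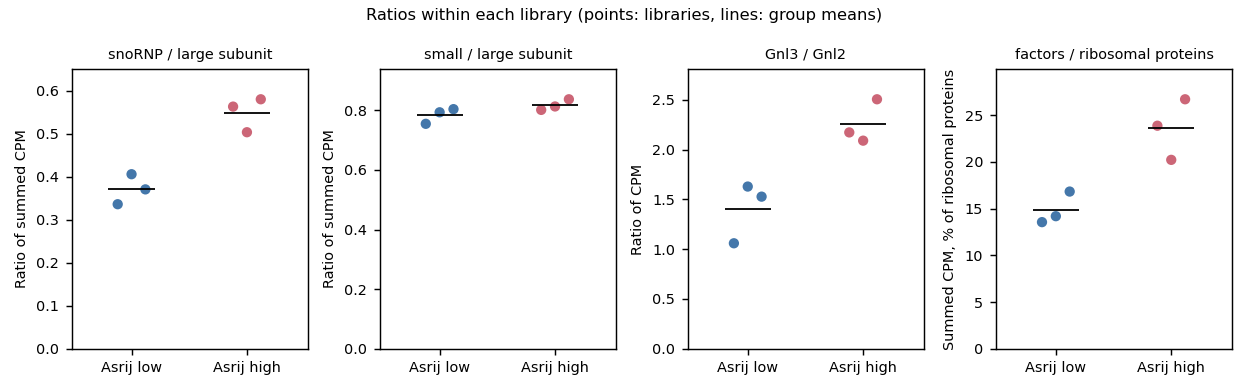
Ratios of levels within each library (points) with the mean of each group (lines), for Asrij low (blue) and Asrij high (red), on axes that start at 0. The snoRNP to large subunit ratio, the Gnl3 to Gnl2 ratio and the ratio to ribosomal proteins separate the groups, and the small to large subunit ratio (0.755 to 0.804 against 0.801 to 0.837) does not.

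The rest of the pathway was higher too. Of 118 further ribosome biogenesis genes, all of which were tested, 97 rose and 0 fell (21.7% and 17.7% over all genes), with a median log2 fold change of 1.05. In 106 of them the lowest Asrij high value was above the highest Asrij low value, where 30.2% of all genes tested were separated in this direction. Outside the 59, small subunit factors rose in 30 of 38 cases, and the largest change was that of the nucleolar protein gene Lyar, from 9.35, 19.0 and 12.2 to 95.3, 56.5 and 89.2 CPM (log2 2.58 ± 0.31, edgeR adjusted p = 0.000481). The smallest was that of the kinase gene Riok3 (-0.19 ± 0.18, edgeR adjusted p = 0.434), which was not called. Large subunit factors rose in 37 of 40 cases, led by the export adaptor Nmd3 (2.26 ± 0.29), while Nop53 was at -0.04 ± 0.20 (edgeR adjusted p = 0.889). Of 9 snoRNP assembly factors 6 rose, from Nufip1 (1.42 ± 0.22) downwards, and Pih1d1 was at 0.25 ± 0.17 (edgeR adjusted p = 0.268). Of 15 genes of the nuclear RNA exosome and its cofactors 13 rose, with Exosc8 at 2.06 ± 0.20 and Exosc5, not called, at 0.41 ± 0.19.

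RNA polymerase I machinery rose in 11 of 16 cases (21.7% over all genes), with a median of 0.90. The catalytic subunit gene Polr1a had 85.9, 89.4 and 83.4 CPM in Asrij low and 217, 189 and 218 CPM in Asrij high (log2 1.27 ± 0.15, edgeR adjusted p = 0.000446). The transcription factor gene Ubtf, which marks active ribosomal DNA, rose by 1.01 ± 0.18 (edgeR adjusted p = 0.00267). Polr1d had the largest rise (1.42 ± 0.19) and Polr1e the smallest value (0.14 ± 0.22, edgeR adjusted p = 0.657).

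Of 10 genes of the MYC network, 3 rose and 3 fell, where 21.7% and 17.7% of all genes tested did. Myc had 261, 271 and 204 CPM in Asrij low and 354, 365 and 245 CPM in Asrij high, and the groups overlapped (log2 0.39 ± 0.20, edgeR adjusted p = 0.155). Its paralogue Mycn had 182, 201 and 115 CPM in Asrij low and 15.6, 70.7 and 22.9 CPM in Asrij high and fell (log2 -2.19 ± 0.55, edgeR adjusted p = 0.0161), though not without a count filter (adjusted p = 0.107) or without Asrij high replicate 3 (0.0674), with a range up to 0.107. The partner gene Max rose by 0.60 and Mlx by 0.87. The antagonist genes did not move together. Mxd3 rose by 0.93, while Mxd1 (-1.21) and Mxd4 (-1.33) fell. Mxi1 (0.19, edgeR adjusted p = 0.399) and Mnt (-0.46, edgeR adjusted p = 0.103) were not called. Mxd1 was not past the threshold on leaving out Asrij low replicate 1 (adjusted p = 0.0997), Asrij low replicate 3 (0.145) or any Asrij high library (0.214, 0.192 and 0.0766 for replicates 1 to 3). Max was not when Asrij low replicate 1 (0.0689) was left out, nor on leaving out Asrij high replicate 1 (0.0956) or 3 (0.103), Mlx and Mxd3 were not without Asrij high replicate 1 (0.0505 and 0.0805) or 3 (0.0529 and 0.0561), and Mxd4 was not without Asrij low replicate 1 (0.0631). The scaling and the method mattered too. Under upper quartile factors Max (0.122) and Mxd3 (0.0743) were not past the threshold, under library totals Max (0.115), Mlx (0.0812) and Mxd3 (0.0598) were not, and Mxd1 was not with limma-voom (0.0938) or without a count filter (0.249).

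The ribosomal proteins that these factors assemble rose less. Of 81 tested genes of cytosolic ribosomal proteins, 50 rose and 0 fell (21.7% and 17.7% over all genes), with a median log2 fold change of 0.81. The summed level of the 59 factors amounted to 13.6%, 14.2% and 16.8% of that of the ribosomal proteins in Asrij low and to 23.9%, 20.2% and 26.7% in Asrij high, without overlap. Ribosomal protein genes have many processed pseudogenes, so their values are uncertain where reads are shared.

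**Figure D4:**
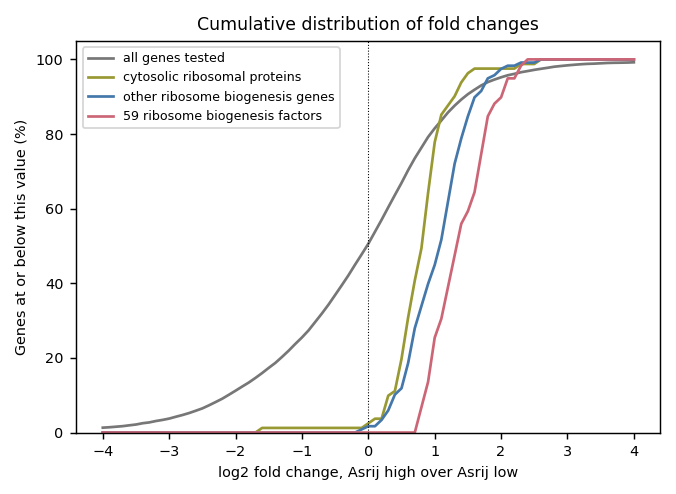
Share of genes (vertical axis, in percent) at or below each log2 fold change (horizontal axis) for all 21445 genes tested, 81 ribosomal protein genes, 118 other ribosome biogenesis genes and the 59 factors. The curves rise at medians of -0.02, 0.81, 1.05 and 1.35, and that of the 59 factors leaves 0 only above 0.7.

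Since the 59 genes moved together, their promoters were searched for short motifs, from 250 bases before to 50 bases after the RefSeq start (GRCm38.p6), on both strands. Sequences were found for 49 of the 59 genes, with 54 promoters. The palindrome CACGTG, the E-box that Myc with Max can bind, was present in 9 of the 54 promoters (16.7%), against 7.15% of 32851 promoters of all genes, and no test was made of this. The 9 genes had a median log2 fold change of 1.34 and those without it 1.45. The letters CCAAT were in 35.2% of the promoters against 37.4% of all, the NRF1 palindrome in 1.85% against 0.971%, TTTGGCGC in 1.85% against 0.514% and TTTCGCGC in 0% against 0.323%. A match describes letters and not binding, and the motifs were counted separately whether or not they overlapped. The 5 genes with an E-box that rose most are shown, with the E-box in capitals and up to 12 bases on either side, to let the flanks be compared. Their windows lie at chr11:17211540-17211564 (Pno1, minus strand), chr8:106893643-106893672 (Utp4, plus strand), chr6:125131811-125131840 (Nop2, plus strand), chr11:107189407-107189436 (Nol11, minus strand) and chr11:93885769-93885798 (Utp18, minus strand). The E-box begins 60, 43 and 20 bases before the start in Nop2, Nol11 and Utp18, and at base 38 and base 16 of the transcript in Pno1 and Utp4.
Pno1: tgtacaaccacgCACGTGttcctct
Utp4: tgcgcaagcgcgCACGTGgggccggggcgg
Nop2: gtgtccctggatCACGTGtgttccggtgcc
Nol11: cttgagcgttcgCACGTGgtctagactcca
Utp18: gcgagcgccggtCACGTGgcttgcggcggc

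Several of the 59 genes carry snoRNA genes in their own span on the same strand, so that they encode both a protein of the pathway and RNAs of it. In the GENCODE M21 annotation 8 of the 59 held 23 such snoRNA genes, of which 22 were in the count table and 21 passed the low-count filter. Of the 21, 3 rose and 0 fell (21.7% and 17.7% over all genes), with a median log2 fold change of 0.78. The RNAs are short and had few counts, and reads of unspliced host RNA cannot be told apart from them. Summed over its 5 snoRNAs, Nop56 gave 185, 83 and 193 counts in Asrij low and 1403, 1025 and 1385 counts in Asrij high, or 3.42, 2.87 and 7.45 CPM against 25.8, 16.1 and 21.01 CPM. In Asrij high most of these counts came from LOC115489632, and in Asrij low less, with 34, 23 and 87 counts in Asrij low and 1074, 775 and 1030 in Asrij high (log2 3.34, edgeR adjusted p = 0.00303). The 3 snoRNAs of Ncl summed to 322, 38 and 102 counts in Asrij low and 354, 265 and 411 in Asrij high, and their CPM overlapped although Ncl itself rose 3.2-fold. Snord82 in Ncl had 40, 4 and 8 counts in Asrij low and 127, 82 and 159 in Asrij high (edgeR adjusted p = 0.035), and Snord92 in Wdr43 had 5, 0 and 0 against 31, 27 and 60 (adjusted p = 0.044). Both calls were lost without Asrij low replicate 2 (adjusted p = 0.0522 and 0.068) or 3 (0.0778 and 0.0764) and without Asrij high replicate 1 (0.145 and 0.154) or 3 (0.155 and 0.22), and that of Snord92 also without Asrij high replicate 2 (0.0951). Both were also lost under upper quartile factors (0.0626 and 0.059) and library totals (0.0689 and 0.0644). Snord82 lost its call with limma-voom (0.0506), and Snord92 without a count filter (0.0788) and with the replicate number as a block (0.0805). The 3 that passed the test are shown from GENCODE M21 (GRCm38), since box C/D proteins of the list bind such RNAs. Capitals mark the letters TGATGA of box C, where present, and the last CTGA, the letters of box D. LOC115489632 lies at chr2:130277195-130277280 (plus strand), Snord82 at chr1:86356261-86356330 (minus strand) and Snord92 at chr17:71631281-71631365 (plus strand).
LOC115489632: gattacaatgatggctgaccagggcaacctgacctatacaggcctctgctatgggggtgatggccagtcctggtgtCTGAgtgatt
Snord82: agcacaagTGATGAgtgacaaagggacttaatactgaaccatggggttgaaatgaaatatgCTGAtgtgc
Snord92: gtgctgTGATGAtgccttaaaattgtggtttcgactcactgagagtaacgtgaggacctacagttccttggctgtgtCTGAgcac

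The 30 factors with an exonic length of at most 3854 bases had a median log2 fold change of 1.35, and the 29 longer ones had 1.35 as well. Across the 59 genes, which share the same 6 libraries, the log2 fold change and exonic length had a Spearman correlation of -0.196. Over all genes tested with a length it was -0.098. Among the largest rises, those of Nhp2, Mrto4, Pno1, Nol10 and Gar1 were in genes shorter than the median, and those of Nolc1 and Ftsj3 in longer genes. Exons of 23 of the 59 overlap exons of another gene, in 22 of them on the opposite strand only. The strand setting of the counting is not given, so reads of such pairs may be shared. The overlap exceeded 500 bases for Tsr1 with Srr, Nop9 with Cideb, Wdr3 with Spag17 and Noc2l with Samd11. The means of Srr were 53.2 CPM (Asrij low) and 93.7 CPM (Asrij high), and those of Tsr1 were 67.9 and 155 CPM.

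Other genes that separate these populations moved alongside, where 21.7% of all genes tested were called higher and 17.7% lower. The 8 cell cycle genes examined were all higher in Asrij high, with summed levels of 539 to 822 CPM in Asrij low and 3191 to 4864 CPM in Asrij high. Mki67, the proliferation marker, had 146, 139 and 290.4 CPM in Asrij low and 1359, 1016 and 1652 CPM in Asrij high (log2 2.81 ± 0.33, edgeR adjusted p = 0.000447). Of 11 stem and progenitor cell genes 10 were lower, with sums of 1491 to 1759 CPM in Asrij low and 450 to 797 CPM in Asrij high, and Procr, a receptor used to define these cells, had 32.3, 32.0 and 38.6 against 1.54, 6.46 and 4.19 CPM (edgeR adjusted p = 0.00115). The list also holds Cd34, Flt3 and Cd48, which long-term stem cells are sorted for lacking or having little of, and Cd48 was the gene not called (edgeR adjusted p = 0.35). Ly6a, the gene of the Sca-1 antigen used in such sorts, had 13.2, 11.8 and 4.59 CPM in Asrij low and 1.08, 2.51 and 2.4 CPM in Asrij high. Procr and Ly6a were thus low in the Asrij high libraries, though Ly6a had at most 13.2 CPM in Asrij low too. Slamf1 had 30.7, 38.4 and 27.4 CPM in Asrij low and 3.38, 11.2 and 3.97 CPM in Asrij high. Kit, also among the 11, fell less, from 729, 754 and 563 CPM to 373, 456 and 305 CPM (log2 -0.85 ± 0.20). None of the 11 was at 0 in a whole group. Between groups, the 59 factors moved with cell cycle genes and against stem and progenitor cell genes. Within Asrij low the order of libraries differed, since replicate 3 had the highest cell cycle sum (822 CPM, against 539 and 694) and the lowest sum of the 59. Within Asrij high, replicate 2 had the lowest sum of both and the highest stem and progenitor cell sum. The part of cell cycle state in the result was not tested.

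Markers of other cells differed as well, and their counts stand beside 21.7% higher and 17.7% lower over all genes tested. Of 8 granulocyte and monocyte markers 5 were higher and 0 lower in Asrij high (sums of 460 to 1844 CPM in Asrij low and 3422 to 3772 CPM in Asrij high), and of 8 erythroid genes 4 were higher and 3 lower (6024 to 43118 CPM against 3280 to 5403 CPM). All 5 stromal markers (85.0 to 585 CPM against 11.001 to 20.9 CPM), 5 of 6 B and plasma cell markers (55.9 to 142 CPM against 11.8 to 15.8 CPM), 2 of 4 endothelial markers (85.5 to 135 CPM against 15.2 to 42.0 CPM) and 3 of 5 macrophage markers (55.2 to 139 CPM against 32.4 to 43.9 CPM) were lower in Asrij high. Megakaryocyte markers (427 to 721 CPM against 299.8 to 1014 CPM) and T and NK cell markers (25.4 to 41.5 CPM against 28.3 to 64.6 CPM) had no call among 5 and 3 tested. The megakaryocyte sum of 1014 CPM was that of Asrij high replicate 2, against 342 and 299.8 CPM in Asrij high replicates 1 and 3. No marker of these lists was at 0 in a whole group. The stromal, B cell, erythroid and macrophage sums were highest in Asrij low replicate 3, the library with the lowest sum of the 59 factors, and without that library the 59 had a median log2 fold change of 1.24 and 56 calls. Without Asrij low replicate 3 and Asrij high replicate 2 together, the median was 1.32 and 58 were called. The part of these cells in the result was not tested.

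**Figure D5:**
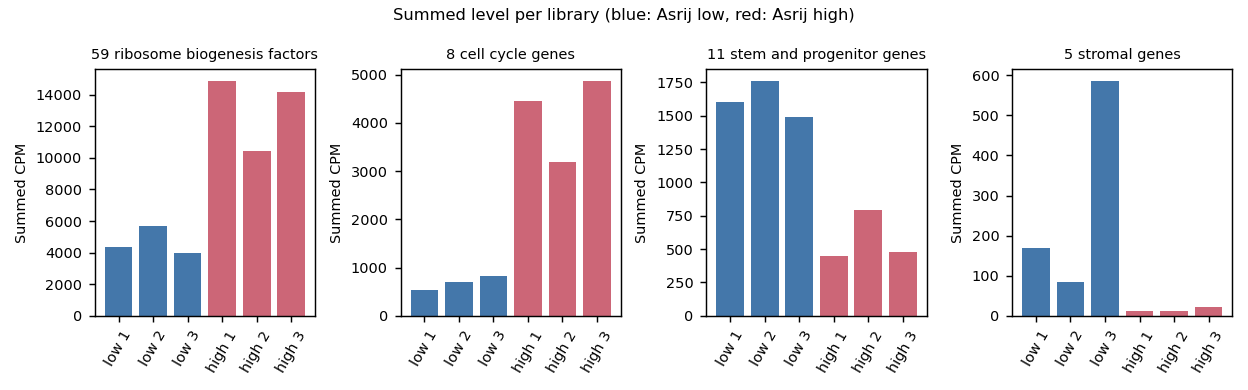
Summed CPM per library (bars, axes from 0) of the 59 ribosome biogenesis factors, 8 cell cycle genes, 11 stem and progenitor cell genes and 5 stromal genes, in Asrij low (blue) and Asrij high (red). The 59 factors reach 10420 to 14853 CPM in Asrij high against 4005 to 5709 CPM in Asrij low, and Asrij low replicate 3 has the most stromal marker RNA (585 CPM).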

How the data were processed

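The authors deposited raw counts of reads for each gene in the 6 libraries. HISAT2, Subread, SAMtools and FastQC, with the build mm10, are named per the submitters' processing notes. Their versions, the annotation, the strand setting and how multiply mapped reads were handled are not stated there. Per the labels' protocols ribosomal RNA was depleted and a directional kit was used, whereas the molecule field names polyA RNA. Columns were tied to samples by library name.

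Counts were tested with edgeR 4.0.16 (R 4.3.3): TMM factors, filterByExpr (minimum count 10, minimum total 15), robust quasi-likelihood fit with group as the only term, Benjamini-Hochberg adjustment over 21445 genes and a threshold of 0.05. The fit was tested on simulated data in which few genes changed, equally up and down. How scaling behaves under a change as broad as the one seen here was therefore not tested. CPM was computed from the counts, and per-kb levels use the union of GENCODE M21 exons, which can exceed the expressed isoform. Alternatives were other scalings and filters, DESeq2 1.42.0, limma-voom (limma 3.58.1), leaving out libraries and a replicate block. The factors, pathway lists and markers were chosen with earlier results of these data known. All factors could be named, and each role's largest and smallest rise was given by library, as were the paralogue pairs. From the other lists the largest and smallest change, Myc, Mycn, Ubtf and Polr1a were named by rule. The other MYC network genes, Snu13, snoRNAs and single markers such as Mki67 and Procr were named after their values were seen. In the pathway lists 4 genes were matched by older names. Libraries of 1 group differed by more than sampling noise (85.0 to 196 chi-square units per degree of freedom). Numbers of counts limit precision, and low genes most in the shallower Asrij low libraries.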

Additional observations from a re-analysis of the deposited data

How the results depend on the processing

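Over the 15 alternatives, between 54 and 59 of the 59 factors were called higher in Asrij high and 0 lower, and no log2 fold change of the 59 changed sign. Their median log2 fold change moved from 1.35 to 1.08 with upper quartile factors and to 1.07 with library totals, by about as much as the median of all genes, and with 1 library left out it ran from 1.21 to 1.60. The number of genes lower in Asrij high was 2346 to 3752 with 1 library left out (2346 without Asrij high replicate 1) and 3925 without Asrij low replicate 3 and Asrij high replicate 2. Whether same-numbered libraries share an origin is not stated. Their deviations from the group means correlated at 0.0126, 0.046 and 0.225, and not every library correlated best with its own number. The value of 0.225, between the replicates 3, was the highest of all pairs, so these correlations cannot decide the question. With the replicate number as a block, 4475 genes were higher and 3613 lower, and all 59 factors were called. Among other pathway genes that were not called, Nop53 was at 0.039 without a count filter, at 0.048 and 0.14 without Asrij low replicates 1 and 2, and at -0.29 without Asrij low replicate 3 and Asrij high replicate 2. Under upper quartile factors and library totals, Pih1d1 was at -0.025 and -0.019 and Polr1e at -0.13 and -0.13. Calls of low genes such as snoRNAs are limited most by depth.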
